A study of Mus musculus with 4 samples.

Results

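The clustered histone genes were followed over age in mouse liver RNA, with ages of 3, 9, 15 and 21 months. Members were all gene symbols that begin with Hist1h, Hist2h, Hist3h or Hist4h, which gave 70 of the 33924 genes in the count tables. Of these, 6 encode linker histones (Hist1h1a, Hist1h1b, Hist1h1c, Hist1h1d, Hist1h1e and Hist1h1t) and 64 are core histone genes, namely 20 H2A, 19 H2B, 12 H3 and 13 H4 genes, of which 3 are annotated as pseudogenes (Hist1h2aj, Hist2h3c2 and Hist3h2bb-ps). The liver RNA came from male mice of the strain C57BL6 (C57BL/6Rj in the methods of the study), and the age was the only difference between the 4 groups. RNA of many mice of 1 age, taken at several times around the day, was combined before the library was made, so that each age is 1 pooled library without a replicate. All differences below are therefore differences between 4 libraries. The exact intervals of these differences cover counting error only, and neither the spread between mice nor that between library preparations can be seen.

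Histones are the proteins around which DNA is wrapped. Core histones H2A, H2B, H3 and H4 form the nucleosome, and the linker histone H1 binds where the DNA enters and leaves it. Most clustered histone genes are switched on in S phase, and their mRNAs have no introns and end in a stem-loop in place of a poly(A) tail, whereas the variant genes outside the clusters are also expressed in cells that do not divide. Several clustered H1 genes are known to be expressed in tissues with little cell division too, and liver is such a tissue.

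The linker genes lie on chromosome 13 in the large histone cluster, and their upstream sequences are shown first. The 35 base reads were taken from the capped 5′ ends of the transcripts. A read that begins at the RefSeq start covers none of the upstream bases printed here. The 150 bases upstream of the RefSeq start are printed for the 5 linker genes with reads and for 1 H2B and 1 H4 gene for comparison. They come from the RefSeq promoter table (GRCm38.p6) and were placed on NCBIM37 (mm9) by exact match. Capitals mark the TATA box letters TATAAA, the CCAAT box letters CCAAT, the H1 box letters AAACACA and the octamer letters ATTTGCAT, each on either strand.
Hist1h1a, chr13:23855387-23855536, + strand: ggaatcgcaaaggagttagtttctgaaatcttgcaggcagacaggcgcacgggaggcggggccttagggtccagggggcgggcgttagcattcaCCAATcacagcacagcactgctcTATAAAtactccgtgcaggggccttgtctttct
Hist1h1b, chr13:21872495-21872644, - strand: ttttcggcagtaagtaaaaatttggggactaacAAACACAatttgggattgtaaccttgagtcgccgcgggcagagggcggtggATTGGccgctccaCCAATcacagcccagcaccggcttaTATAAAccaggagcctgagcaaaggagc
Hist1h1c, chr13:23830526-23830675, + strand: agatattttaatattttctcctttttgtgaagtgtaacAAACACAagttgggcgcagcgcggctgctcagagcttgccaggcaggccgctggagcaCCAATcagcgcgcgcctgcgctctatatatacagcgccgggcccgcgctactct
Hist1h1d, chr13:23646751-23646900, + strand: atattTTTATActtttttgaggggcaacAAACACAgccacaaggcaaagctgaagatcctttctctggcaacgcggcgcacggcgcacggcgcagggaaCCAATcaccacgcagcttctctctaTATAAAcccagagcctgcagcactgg
Hist1h1e, chr13:23714428-23714577, - strand: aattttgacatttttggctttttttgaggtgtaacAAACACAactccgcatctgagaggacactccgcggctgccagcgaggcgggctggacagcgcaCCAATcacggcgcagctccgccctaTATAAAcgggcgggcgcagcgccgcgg
Hist1h2bb, chr13:23838453-23838602, + strand: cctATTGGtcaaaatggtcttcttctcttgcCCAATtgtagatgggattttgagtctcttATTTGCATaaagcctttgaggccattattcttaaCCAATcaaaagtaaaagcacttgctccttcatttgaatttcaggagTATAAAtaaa
Hist1h4d, chr13:23673287-23673436, + strand: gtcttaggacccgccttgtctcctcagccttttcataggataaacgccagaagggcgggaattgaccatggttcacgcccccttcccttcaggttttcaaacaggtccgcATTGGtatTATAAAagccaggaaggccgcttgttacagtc

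In the 250 bases before the start, AAACACA was found in 5 of the 6 H1 promoters, all except Hist1h1a, in 2 of 17 H2A and 2 of 15 H2B promoters and in no H3 or H4 promoter, against 6.25% of all 32851 promoters in the table. CCAAT was found in 6 of 6 H1, 17 of 17 H2A, 15 of 15 H2B, 8 of 10 H3 and 3 of 12 H4 promoters, against 33.8% of all promoters. ATTTGCAT was found in 7 of 17 H2A and 6 of 15 H2B promoters and in no H1, H3 or H4 promoter, against 1.6% of all promoters. TATAAA was found in 4 of 6 H1 promoters but not in that of Hist1h1c, and in 7 of 17 H2A, 8 of 15 H2B, 4 of 10 H3 and 6 of 12 H4 promoters, against 12.4% of all promoters. Of the 70 members, 60 had 1 promoter in the table, and these matches of letters describe the sequence and do not show binding.

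The stem-loop was searched as a stem of 6 bases and a loop of 4 bases, with at most 1 mismatch in the stem. In addition, the stem had to begin with GG and end with CC, and the loop had to begin with TT. The search covered the 100 bases after the stop codon and did not show where a transcript ends. The stem-loop was present in 61 of 67 coding members and in all 6 linker genes, but in only 0.207% of 22171 other protein-coding genes. Some annotated transcripts run past it, such as those of Hist1h1c (to base 23832235) and Hist1h1d (to base 23650721). The commonest form was found in 39 members, 5 linker genes among them. It is shown with the stem in capitals, as read from Hist1h1c at chr13:23831381-23831396 (NCBIM37, + strand).
stem-loop: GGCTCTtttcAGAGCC

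Members differ in how well a 35 base read can tell them apart. The first 35 coding bases of Hist1h3a at chr13:23854188-23854222 (- strand) are shared by 8 Hist1h3 genes. They lie downstream of its annotated transcript start at base 23854255, where a read of the capped 5′ end would begin.
Hist1h3a: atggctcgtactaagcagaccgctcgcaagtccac
Between 72.2% and 76.7% of all records in a library were set aside as not uniquely aligned, so that genes with near-identical copies are undercounted. Every window of 35 bases along each transcript was therefore compared with the whole genome, allowing 1 mismatch. A window whose only copies differ by 1 base can still align uniquely, so the percentages below can overstate what is lost. For the 6 linker genes between 0% and 30.8% of windows occurred elsewhere, and none of those within the first 100 bases did. The median of repeated windows was 70.2% for H2A, 72.2% for H2B, 70.3% for H3 and 61.8% for H4 genes. Within the first 100 bases, the medians were 58.1% (H2A), 34.9% (H2B), 59.1% (H3) and 33.3% (H4). No repeated window was found there in 7 H2A, 8 H2B, 3 H3 and 5 H4 genes. The 3 H3 genes, Hist1h3b, Hist1h3c and Hist1h3f, are among the 8 that share the coding bases above. These first 100 bases were counted from the GENCODE M1 start, and RefSeq places some starts further upstream, that of Hist1h2bh by 85 bases. RefSeq places others further downstream, nearer the shared coding bases, among them Hist1h3b and Hist1h3c (GENCODE start minus RefSeq start of -78 and -81 bases). The repeated share of the first 100 bases was not calculated from the RefSeq starts.

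Of the 70 members, 50 were counted in at least 1 library and 32 in all 4 libraries, while 20 were at 0 everywhere. The members at 0 had a median of 93.7% repeated windows, and 8 of 20 were repeated along their whole length. However, 6 of these 20 had no repeated window within the first 100 bases, namely Hist1h1t, Hist1h2aa, Hist1h2ae, Hist1h2ak, Hist1h2ba and Hist3h2ba. The 23 members with at least 20 counts in a library had a median of 55.7%, and none of them was repeated along its whole length. A count of 0 in a member with copies elsewhere therefore does not show that the gene was silent. Hist1h1t, the testis linker histone, was at 0 in every library although none of its windows was repeated, which at the depth of the 15 month library allows a share of up to 0.000571% of the gene counts.

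**Figure D1:**
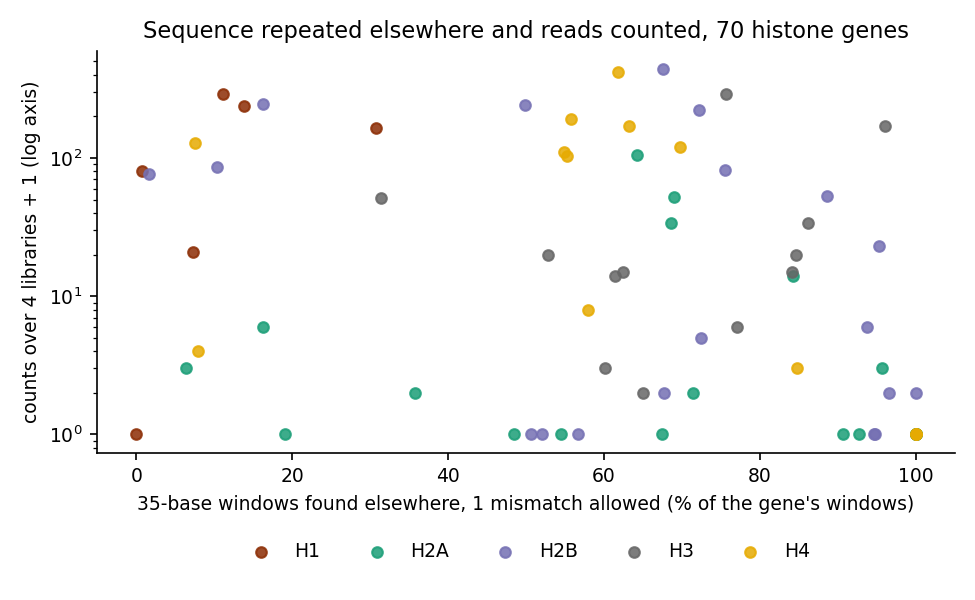
Percentage of 35 base windows of each histone gene that occur elsewhere in the genome with 1 mismatch allowed (x axis) and its counts over the 4 libraries plus 1 (y axis, log axis), 1 point per gene, coloured by histone class. The H1 genes lie at 30.8% or below, and 8 of the 20 genes without counts lie at 100% (points there overlap).

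The libraries held 955934, 958586, 525772 and 735962 gene counts at 3, 9, 15 and 21 months, and the 15 month library was the shallowest. The 8 hepatocyte markers, Alb among them, summed to between 88030 and 98730 CPM (counts scaled to the same total of gene counts in each library), so the defining genes of the labelled tissue were present. Of the markers of other liver cells, the summed level of 11 Kupffer cell and macrophage genes was 889, 1024, 1010 and 1188 CPM and that of 7 sinusoidal endothelium genes 683, 569, 529 and 644 CPM. The 11 lymphocyte and plasma cell genes summed to only 5, 16, 11 and 22 counts with Ms4a1 at 0. The 8 stellate cell genes summed to 376, 613, 673 and 598 CPM, the 5 cholangiocyte genes to 28.2, 16.7, 41.8 and 25.8 CPM with Epcam at 0, and the 6 erythroid genes to 1616, 2368, 1712 and 1376 CPM. Their part in the results below was not tested. In pooled tissue RNA, fewer cells of a type and less RNA per cell cannot be told apart.

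Linker histone genes were lower in the 21 month library than in the 3 month library. In order of age, their counts summed to 328, 239, 121 and 103. This corresponds to 0.0343% (95% exact Clopper-Pearson interval 0.0307 to 0.0382), 0.0249% (0.0219 to 0.0283), 0.023% (0.0191 to 0.0275) and 0.014% (0.0114 to 0.017) of the gene counts. The order followed age, the 9 and 15 month libraries overlapped in their intervals, and the share at 21 months was 0.408 times that at 3 months (0.324 to 0.51). Core histone genes summed to 1154, 915, 588 and 902 counts, or 0.121%, 0.0955%, 0.112% and 0.123% of the gene counts. Their share at 21 months was 1.01 times that at 3 months (0.93 to 1.11), whereas at 9 months it was 0.791 times (0.724 to 0.863). At 15 months it was 0.926 times (0.837 to 1.02). On the scale of the geometric mean of all genes counted in every library, the 15 month ratio was 0.847 (0.766 to 0.936). Whether the 15 month interval included 1 thus depended on the scale. Linker genes thus took 22.1% (20 to 24.3), 20.7% (18.4 to 23.2), 17.1% (14.4 to 20) and 10.2% (8.44 to 12.3) of the histone counts in order of age.

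**Figure D2:**
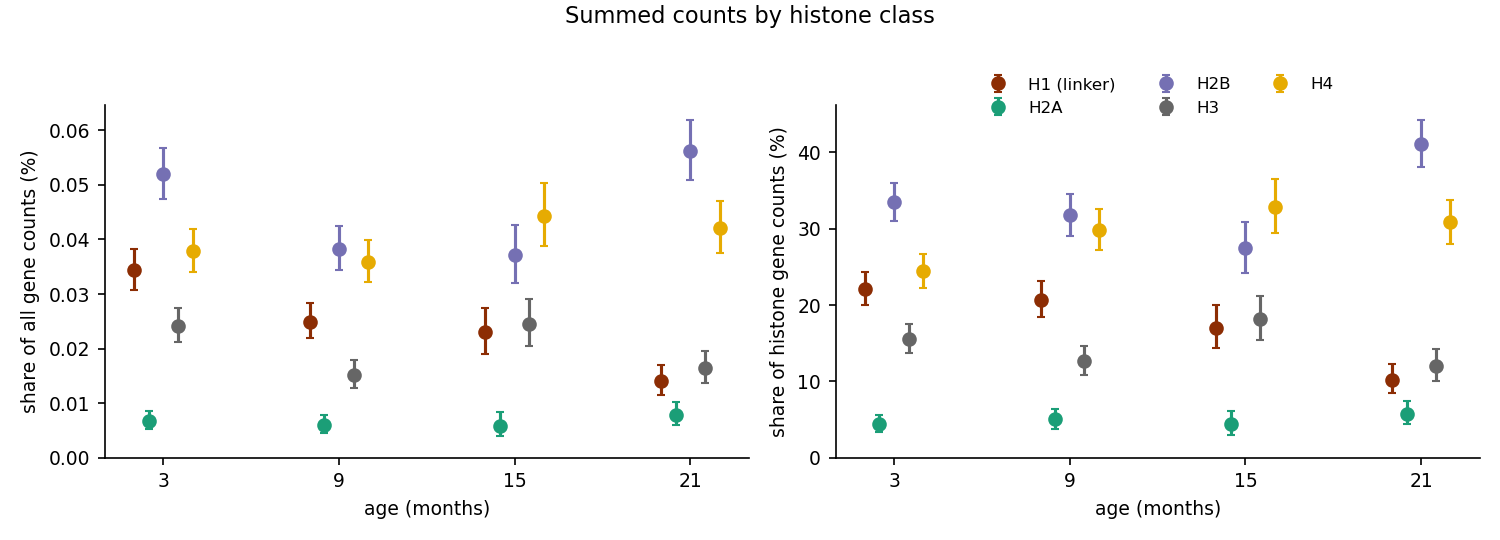
Share of all gene counts (left, y axis in %) and of histone gene counts (right, y axis in %) by histone class and age in months, 1 library per age, with bars for the 95% exact Clopper-Pearson interval (points are shifted sideways for legibility). H1 goes from 22.1% to 10.2% of the histone counts between 3 and 21 months.

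The linker genes did not share 1 pattern. Hist1h1c (H1f2 in RefSeq) had 101, 89, 36 and 11 counts at 3, 9, 15 and 21 months, which is 105.7, 92.8, 68.5 and 14.9 CPM. The 21 month library stood apart from the other three, whose levels were between 68.5 and 105.7 CPM. On the scale of the geometric mean of all genes counted in every library, the 21 month level was 0.138 times that at 3 months (0.0666 to 0.257). Hist1h1a had 41, 25, 10 and 4 counts, lower at each later age, and its ratio of 21 to 3 months was 0.123 (0.0321 to 0.341).

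Hist1h1d had 132, 54, 44 and 59 counts. It was high at 3 months only, and the later libraries were at 56.3 to 83.7 CPM against 138 CPM. Its ratio to 3 months was 0.418 (0.299 to 0.578) at 9 months and 0.565 (0.409 to 0.774) at 21 months. Hist1h1e had 45, 63, 31 and 26 counts, and the interval of its 21 month ratio included 1 (0.731, 0.433 to 1.21). Hist1h1b had 9, 8, 0 and 3 counts, too few for a comparison. Without Hist1h1d, the linker gene with the most counts, the summed share at 21 months was 0.292 times that at 3 months (0.205 to 0.406), while that at 9 months was 0.941 times (0.766 to 1.16). Without Hist1h1c, a choice made after seeing the data, the 21 month value was 0.526 (0.409 to 0.674).

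**Figure D3:**
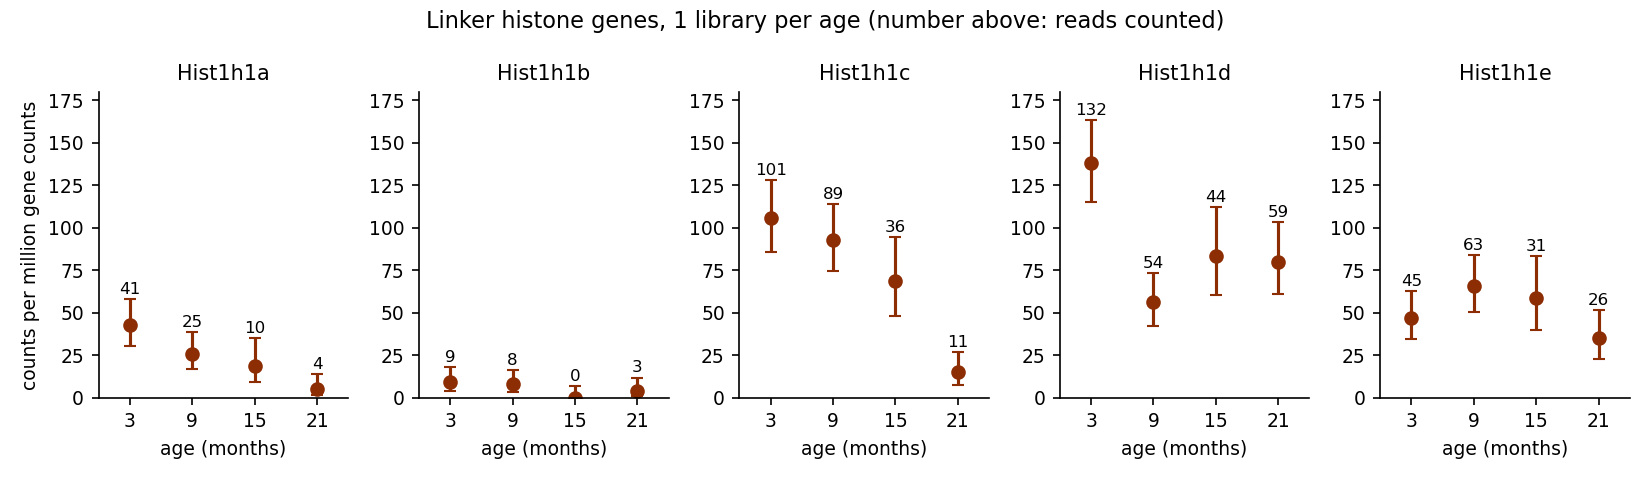
CPM (y axis, counts scaled to the same total of gene counts) of 5 linker histone genes by age in months (x axis), with 95% exact Poisson intervals and the number of reads above each point. Hist1h1c and Hist1h1a are lowest at 21 months with 11 and 4 reads, while Hist1h1d is highest at 3 months with 132 reads.

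A straight line over age was fitted gene by gene (edgeR, quasi-likelihood test), and the change along the line from 3 to 21 months is given as a log2 value. Where the 3 or the 21 month library was left out, the line was still extended over these 18 months, beyond the ages fitted. The fit to all 4 libraries leaves 2 residual degrees of freedom. Departures from the line stand in for the spread between libraries, and the test shares information on this spread between genes. Its standard errors are therefore not counting error alone. Of 5569 genes tested, 6 (0.108%) passed an adjusted p of 0.05 and 290 (5.21%) an unadjusted p of 0.05. Of the 24 members tested, none passed the adjusted and 4 the unadjusted threshold. DESeq2's Wald test called 0 genes over the whole data set, and so 0 of the 50 members tested. Of these 50, 2 had an unadjusted p below the threshold, and the share over all genes is not given. The 4 members were Hist1h1c with -2.35 ± 0.56 (SE, adjusted p = 0.0569, edgeR), Hist1h1a with -2.60 ± 0.80 (adjusted p = 0.303), the H3 gene Hist1h3e with -1.12 ± 0.52 (adjusted p = 0.851) and the H2B gene Hist2h2be with -1.50 ± 0.71 (adjusted p = 0.869). All 4 linker genes tested had a negative fitted slope and 8 of 20 core genes did, against 50.1% of all genes tested. The negative slope of Hist1h1d rested on the 3 month library (0.66 without it) and that of Hist1h1e on the 21 month library (0.46 without it). Hist1h1c passed the adjusted threshold when the 3 month or the 15 month library was left out, with changes of -3.72 and -2.80. Without the 21 month library its change was -0.96 (adjusted p = 0.875, edgeR), and that of Hist1h1a was -1.82 (adjusted p = 0.756), so that the size of the change in Hist1h1c rested on this library. Over all alternatives, the adjusted p of Hist1h1c lay between 0.000897 and 0.999. The median fitted change was -1.51 for the linker and 0.05 for the core genes.

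**Figure D4:**
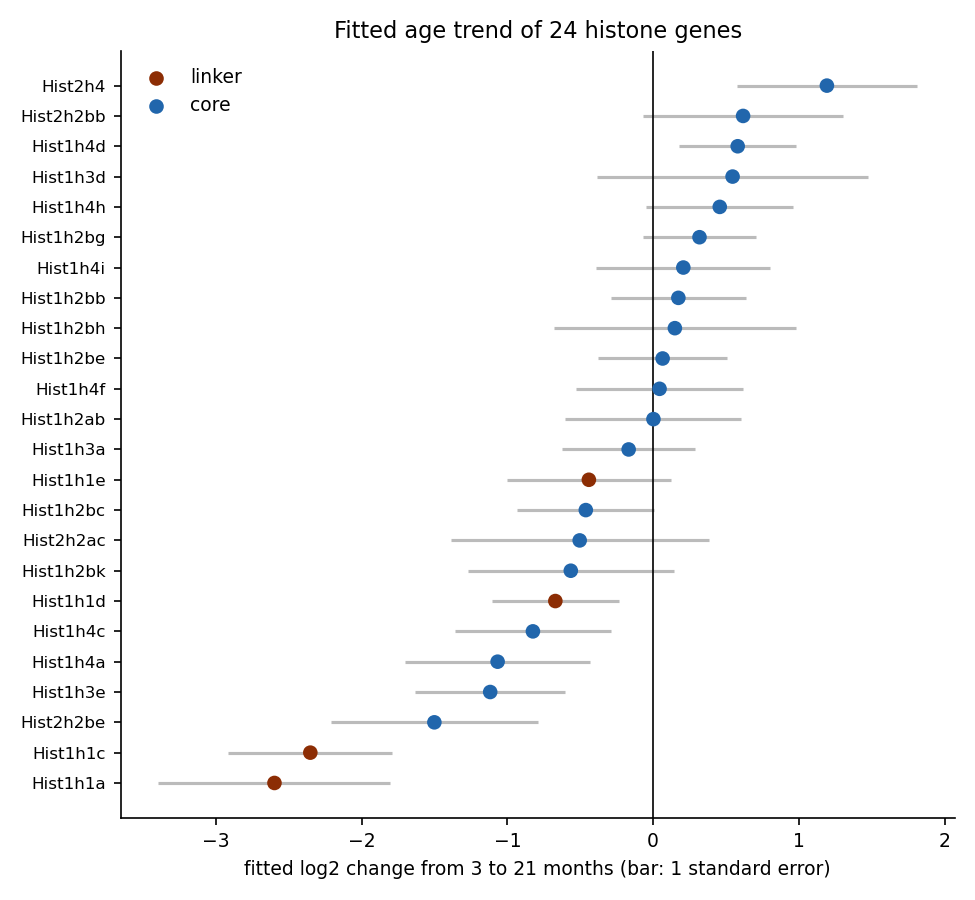
Fitted log2 change from 3 to 21 months (x axis) with its standard error for the 24 histone genes in the trend test (y axis), linker genes in brown and core genes in blue. The values run from -2.60 for Hist1h1a to 1.19 for Hist2h4, and none passed the adjusted threshold.

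H2A genes are represented by few reads. Hist1h2ab had 34, 32, 6 and 32 counts, low only in the 15 month library, and Hist2h2ac had 20, 13, 7 and 11 counts. Summed over the 20 H2A genes there were 65, 58, 31 and 58 counts, and only 9 of the genes were counted at all. The ratio of the summed share to that of 3 months was 0.89 (0.614 to 1.29), 0.867 (0.546 to 1.35) and 1.16 (0.799 to 1.68) at the later ages.

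H2B genes summed to 496, 367, 195 and 413 counts, more than any other class except at 15 months, when H4 genes had 233. The share was 0.738 times (0.643 to 0.846) that at 3 months in the 9 month library and 0.715 times (0.603 to 0.845) in the 15 month library, and 1.08 times (0.947 to 1.23) in the 21 month library. Hist1h2bg had 134, 108, 67 and 130 counts, Hist1h2be 85, 58, 28 and 72, and Hist1h2bb 77, 52, 19 and 73. In CPM these 3 genes were at or above their 3 month level at 21 months and below it at 9 and 15 months. Hist1h2be overlaps the gene model Gm11398 on the same strand, so that its reads cannot be assigned with certainty. Hist1h2bc had 79, 78, 37 and 46 counts, Hist2h2bb 23, 17, 7 and 29, and Hist1h2bh 22, 7, 4 and 19. Hist1h2bk had 34, 14, 20 and 13 counts and Hist2h2be 37, 27, 11 and 10. These last 2 genes were lower at 21 than at 3 months, with ratios of 0.483 (0.234 to 0.94) and 0.342 (0.152 to 0.701). Hist1h2bf had 3, 0, 1 and 18 counts, with 95.3% of its windows repeated elsewhere when 1 mismatch was allowed and 73.3% as exact copies.

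H3 genes summed to 231, 146, 129 and 121 counts. Their share of the gene counts was 0.63 times (0.509 to 0.779) that at 3 months in the 9 month library, 1.01 times (0.812 to 1.26) in the 15 month library and 0.68 times (0.541 to 0.851) in the 21 month library, and was thus not lower at each later age. Hist1h3a had 105, 57, 69 and 57 counts and Hist1h3e 74, 46, 23 and 26. The ratio of 21 to 3 months was 0.686 (0.488 to 0.957) for Hist1h3a and 0.444 (0.273 to 0.703) for Hist1h3e. With 1 mismatch allowed, 96% of the windows of Hist1h3e occur elsewhere, and 82.3% do so as exact copies. Reads from much of its transcript may therefore not align uniquely. Within its first 100 bases, near where 5′ end reads begin, 100% of the windows occur elsewhere with 1 mismatch allowed. Hist2h3b had 17, 9, 1 and 6 counts and Hist1h3d 11, 16, 10 and 13.

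H4 genes summed to 362, 344, 233 and 310 counts, and the share at each later age was 0.948 (0.815 to 1.1), 1.17 (0.988 to 1.38) and 1.11 (0.953 to 1.3) times that at 3 months. Single H4 genes went in different directions. Hist2h4 had 17, 46, 26 and 38 counts and was lowest at 3 months, with ratios of 2.77 (1.56 to 5.15), 2.54 (1.33 to 4.99) and 2.83 (1.56 to 5.34) at 9, 15 and 21 months. Hist1h4d had 105, 118, 73 and 125 counts, with a ratio of 1.51 (1.15 to 1.97) at 21 months. In contrast, Hist1h4c had 66, 44, 34 and 24 counts and a ratio of 0.46 (0.276 to 0.744). Hist1h4a had 42, 32, 11 and 17 counts, Hist1h4f 41, 26, 22 and 30, Hist1h4h 54, 41, 49 and 47, and Hist1h4i 31, 32, 17 and 29.

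**Figure D5:**
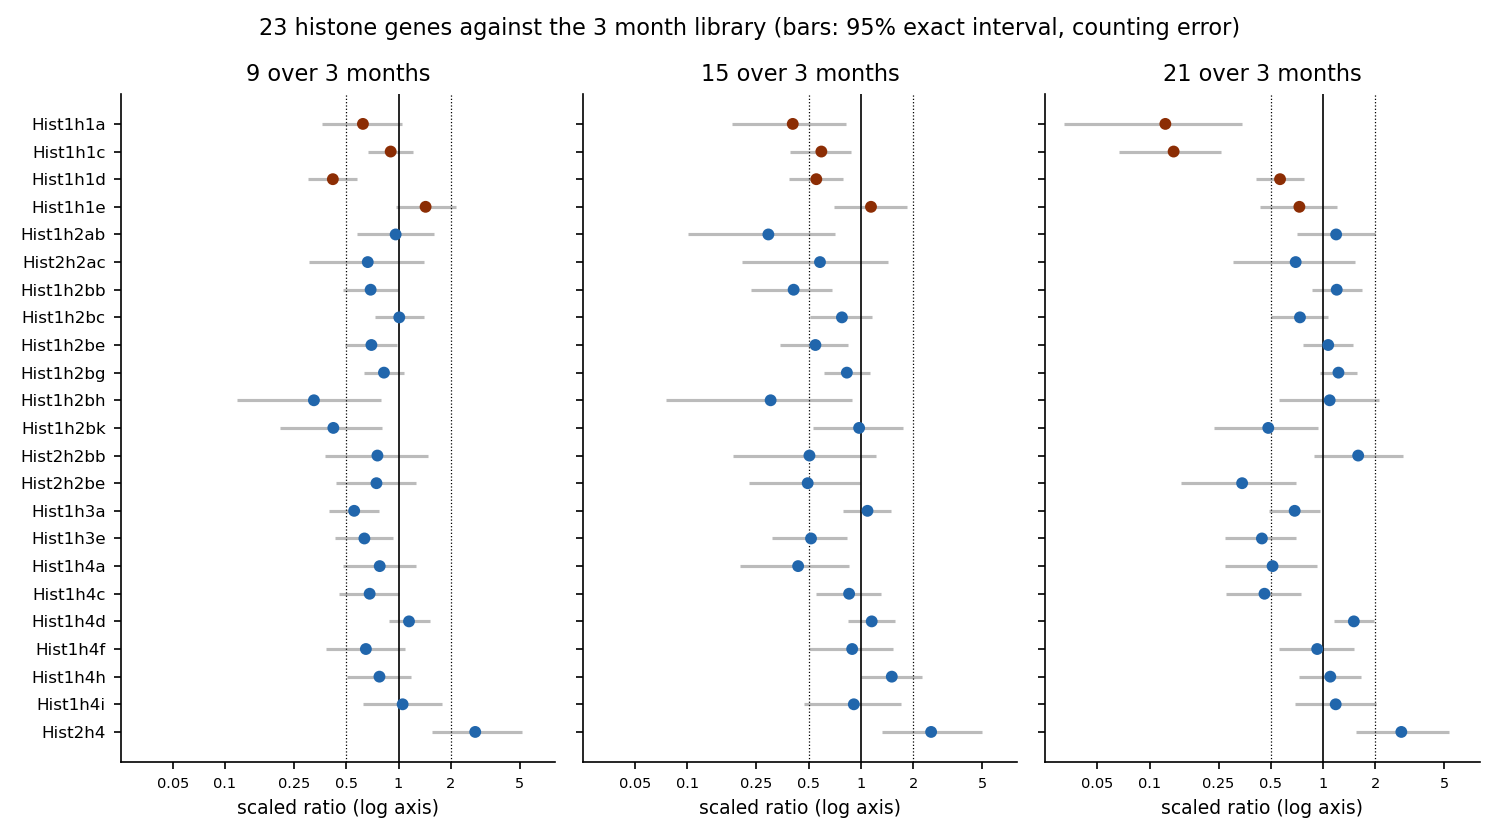
Ratio to the 3 month library (x axis, log axis) of the 23 histone genes with at least 20 counts in a library, scaled by the geometric mean, with 95% exact intervals for counting error, linker genes in brown and core genes in blue. Dotted lines mark a 2-fold difference, and Hist1h1a and Hist1h1c lie furthest below it at 21 months, at 0.123 and 0.138.

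The 3 comparisons against 3 months share that library, so their counts are not independent. They used genes with at least 20 counts over both libraries and 0.5 added to each count, and no test is possible with 1 library per age. At 9 months, 3 of 25 members were more than 2-fold lower (9.01% of all genes) and 1 was higher (7.55%). At 15 months, 5 of 24 were lower (11.9%) and 1 was higher (8%). At 21 months, 7 of 26 were lower (10.2%) and 2 were higher (8.26%). The 7 were Hist1h1a, Hist1h1c, Hist1h2bk, Hist1h3e, Hist1h4c, Hist2h2be and Hist2h3b, and the 2 were Hist1h2bf and Hist2h4.

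Pearson's chi-square test compared the 4 libraries with counting noise for genes with at least 5 expected counts in every library. Of 26 members, 17 passed an adjusted p of 0.05, against 34.9% of all 6172 genes tested. The count was 10 of 25 without the 3 month library and 10 of 26 without the 21 month library. The number of all genes called went from 2152 to 1405 and 1666 in the same leave-outs. The median total was 123 counts for the 26 members and 76 for all genes tested, and the test calls smaller differences in genes with more counts. Hist1h1c (adjusted p = 1.27e-10 in the chi-square test), Hist1h1d (6.21e-07) and Hist1h1a (0.000133) passed, and Hist1h1e (0.0655) did not. Because each age is a single library, the test finds differences between libraries and not an effect of age.

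The variance over the 4 ages of the centered log-ratio (clr), the natural logarithm of a count over the geometric mean of its library, had a median of 0.161 for the 32 members counted in every library and of 0.16 for all 8704 such genes. With at least 10 counts in every library the medians were 0.1004 and 0.0568, so that the similarity of both values depended on the filter. For the 4 linker genes it was 0.837 for Hist1h1c, 0.804 for Hist1h1a, 0.134 for Hist1h1d and 0.0792 for Hist1h1e. The variance expected from counting noise alone was 0.035 for Hist1h1c and 0.104 for Hist1h1a, below the measured variance of both genes. Hist1h4i had 0.0118, which is below its counting noise of 0.0392.

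Genes that act with the clustered histones gave no call in the trend test. H1f0, the linker histone outside the clusters that is found in cells that do not divide, had 13, 20, 17 and 14 counts. Among the 12 replication-independent variants in the files, H3f3a had 67, 53, 24 and 41 counts, H2afy 31, 32, 13 and 24, and H3f3b 9, 4, 17 and 22. Of the 4 variants in the trend test 0 passed in either direction, and H3f3b had 2.20 ± 0.90 on the log2 scale (adjusted p = 0.752, edgeR). For the 23 genes of histone mRNA 3′ end formation found in the files, 9 were tested and 0 passed, with a median fitted change of 0.81. They include Sympk (31, 26, 15 and 26 counts), a scaffold of the cleavage complex, Upf1 (15, 24, 26 and 21), a helicase of histone mRNA decay, and Cpsf1 (24, 18, 15 and 27). Of 24 histone chaperones, 13 were tested and 0 passed, with a median of 0.64. Hjurp had 44, 79, 45 and 52 counts, Npm1 22, 44, 27 and 20, and Ncl 20, 16, 20 and 30. The median fitted change of all genes tested was -0.00088. In the chi-square test between libraries, 2 of 4 variants and 7 of 13 chaperones passed the adjusted threshold. For 3′ end formation it was 1 of 10 genes, and H1f0 did not pass, against 34.9% of all genes tested.

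The 38 S phase and cell cycle genes in the files had low counts, with sums of 118, 130, 70 and 113, or 123, 136, 133 and 154 CPM. Of these, 11 were at 0 in all libraries, among them Ccnb1, Plk1 and Aurkb, which act in mitosis. The genes with the most counts were Ccnf (24, 17, 6 and 20), Tk1 (17, 22, 2 and 12), an enzyme of thymidine salvage, and Pcna (12, 12, 14 and 14), the clamp of DNA polymerases. Of the 5 genes in the trend test 0 passed, and the median fitted change was -0.03. In the chi-square test it was 0 of 4.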

How the data were processed

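RNA of mouse liver of 4 ages was enriched for capped 5′ ends by the authors and sequenced as 35 base SOLiD reads on the same lane. They mapped the reads to mm9 with the CLC Genomic workbench, and HTSeq is named in the submitters' processing notes. The deposited files hold raw counts of reads for each gene symbol, which were not normalised. Whether strand was used is not given in the sources used here. Rows that name no gene (91.6% to 93.3% of the records) were left out.

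Ages were taken from the labels. Trends used edgeR 4.0.16 (quasi-likelihood test, TMM factors, filterByExpr, Benjamini-Hochberg adjustment) and DESeq2 1.42.0 as an alternative, in R 4.3.3. Shares, ratios, chi-square tests and clr were calculated with Python 3.11.15 and scipy 1.17.1. Ratios of named genes carry no added count. The scripts were tested on simulated data. Positions come from GENCODE M1 on NCBIM37. Members with at least 20 counts in a library were named with their counts, and from each other list the 3 genes with the most counts. H3f3a and H3f3b were always named. Hist1h1b, Hist1h2bf, Hist2h3b and Hist1h3d, the members at 0 named singly and 3 of the mitotic genes at 0 lie outside this rule and were chosen after their values were seen. The members and lists were chosen with earlier results of these data known. Alternatives were other scale factors, filters, pseudocounts and denominators, and leaving out each library.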

Additional observations from a re-analysis of the deposited data

How the results depend on the processing

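No paired analysis was possible because each age had 1 library. With 1 library per age, no value has a replicate error, and reads without a unique alignment were not counted. Of all genes, 6 passed the trend threshold with RLE factors, 2 with library totals, 0 with DESeq2 and 9 without the low count filter. The count of members past the trend threshold was 0 with RLE factors, library totals and DESeq2, and 1 without the filter on low counts (Hist1h1c). Leaving out 1 library gave 0 to 1, and the 1 was Hist1h1c without the 3 month or without the 15 month library, with fitted changes of -3.72 and -2.80, whereas without the 21 month library its change was -0.96 (adjusted p = 0.875, edgeR). With library totals its adjusted p was 0.183. Leaving out 1 library in the chi-square test gave 10 to 15 members, with 10 without the 3 month and 10 without the 21 month library. The number of all genes called also went from 2152 to between 1405 and 1791. With at least 10 counts over both libraries, 2 of 28 members instead of 1 were more than 2-fold higher at 15 months. At 21 months it was 4 of 31 instead of 2. With the same filter, 4 of 28 were more than 2-fold lower at 9 months, 6 of 28 at 15 months and 9 of 31 at 21 months. The 7 lower members at 21 months became 6 with TMM factors, library totals or a pseudocount of 1. Shares over all genes are not given for these alternatives. Without Hist1h1d, the linker share ratio was 0.941 at 9 months and 0.292 at 21 months. In sums lacking Hist1h1c or Hist1h1a, both chosen after seeing the data, the 21 month ratio was 0.526 and 0.448. The median clr variance was 0.234 with a pseudocount of 1, 0.1004 with at least 10 counts in every library (0.0568 for all genes) and 0.165 with TMM factors, and it ranged from 0.116 to 0.197 when 1 library was left out.

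The direction of the fitted log2 change, which passed no threshold, turned in 18 of 189 combinations of a member and an alternative. When 1 library was left out, the change ranged from -1.24 to 0.66 for Hist1h1d, -1.41 to 0.46 for Hist1h1e, -2.11 to 0.47 for Hist1h2ab, -1.76 to 1.23 for Hist1h2bb, -1.18 to 0.95 for Hist1h2be, -0.28 to 0.87 for Hist1h2bg, -0.066 to 0.37 for Hist1h2bh, -0.94 to 0.33 for Hist1h2bk, -0.43 to 0.47 for Hist1h3a, -0.17 to 0.77 for Hist1h4f, -0.047 to 0.26 for Hist1h4i and -1.31 to 1.69 for Hist2h2bb. For Hist1h2ab, whose fitted change was 0.002, it was -0.002 with RLE factors, -0.012 without the filter and -0.016 with DESeq2. The leave-outs use fewer samples, and for the others the cause was not tested.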
